A study of Mus musculus with 2 samples.

Results

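Cells selected by marker genes of unmyelinating glia of inner ear nerve and ganglion were examined in single-cell RNA sequencing of mouse cochlea, as 527 cells out of 42625. Many of them also carried markers of other cell classes, as described below. A cell was taken when at least 3 of 9 genes of unmyelinating glia (Fabp7, Scn7a, Cdh19, Ednrb, Abca8a, Chl1, Luzp2, Matn2 and Gpr37l1) had at least 1 unique molecular identifier (UMI, a count of 1 captured RNA molecule). In addition, fewer than 2 of 5 myelin genes (Ncmap, Prx, Pllp, Cldn19 and Drp2) could be detected, at least 300 genes had to be present, and mitochondrial UMIs could make up at most 20%. The AAV-Isl1 plus noise library came from CBA/CaJ wild-type mice of 4 to 6 weeks whose cochlea received Isl1, a LIM-homeodomain transcription factor, by an adeno-associated virus (AAV) before noise. The noise-only library came from CBA/CaJ mice of the same age, and the noise was 105 dB at 1 to 20 kHz for 2 hours in both groups. The noise-only ears were the untreated opposite ears of the same mice, per the study's design text, and ears were dissected 2 days later. Tissue of 5 mice was pooled into 1 library per group, so intervals given here cover counting error between 2 libraries and say nothing of the spread between mice. No ears without noise or with an empty vector were analysed here, and the labels name no promoter for the vector. The AAV-Isl1 plus noise library held 207 of the cells and the noise-only library 320.

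Schwann cells that do not form myelin wrap several thin axons in Remak bundles, while satellite glia enclose the cell bodies of ganglion neurons and buffer potassium and glutamate around them. Both descend from the neural crest, depend on the transcription factor Sox10 and on neuregulin signals from axons, and keep Fabp7, a brain-type fatty acid carrier, which myelinating Schwann cells lose. In the cochlea such cells lie along the auditory nerve and around spiral ganglion neurons. Melanocytes of the stria vascularis, called intermediate cells, arise from the same crest lineage and also express Sox10, Ednrb and Kcnj10.

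The deposited matrices held 24209 and 21068 barcodes with 40268563 and 38330528 UMIs in the AAV-Isl1 plus noise and noise-only libraries, and 22672 and 19953 barcodes passed the filters. The labels state about 1600 cells loaded for a target of 1000 in each library, fewer than the deposited barcodes. The lowest barcode had 500 UMIs in each library. The libraries shared 145 barcodes, and 2 and 6 of the selected cells carried one, but no barcode was selected in both. Selected cells had a median of 1374 UMIs and 825 genes in the AAV-Isl1 plus noise library, against 1060.5 UMIs and 654.5 genes in the noise-only library. Their median mitochondrial share was 6.16% against 5.67%. Neutrophil-marker cells numbered 559 against 24, and erythroid-marker cells 181 against 2, so the libraries differed in blood cells as a whole.

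The genes that chose the cells are described here without a test. Fabp7 (chr10:57784881-57788450, mm10, plus strand) had 1069 counts per 1000000 UMIs (CPM) in the AAV-Isl1 plus noise library, against 1202 CPM in the noise-only library. That level was 40.8-fold and 44.3-fold above all other filtered cells. Scn7a (chr2:66673425-66784914, minus strand), a sodium channel relative of glia and sensory neurons that does not open with voltage, had 239 CPM against 463 CPM, 40.6-fold and 50.3-fold above other cells. Cdh19, a cadherin of Schwann cell precursors, had 350 CPM against 381 CPM, and Abca8a, a lipid transporter, 254 CPM against 271 CPM. Ednrb, the endothelin receptor B, had 571 CPM against 552 CPM and stood only 7.0-fold and 6.9-fold above the rest. The threshold of 3 markers cut through a steep distribution. Cells with exactly 2 markers numbered 612 in the AAV-Isl1 plus noise library and 571 in the noise-only library. Those with exactly 3 numbered 144 and 177, with 4 they numbered 52 and 94, with 5 they were 9 and 33, with 6 they were 2 and 12, and with 7 they were 0 and 4. Dct, a pigment enzyme that the rule did not use, had 11683 CPM and 13430 CPM in cells with exactly 2 markers, and 7954 CPM and 10469 CPM in those with exactly 3. It was down to 161 CPM and 1231 CPM in cells with 5. Another 46 and 54 cells had enough glial markers but were kept out by their myelin genes.

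The name did not hold for all of these cells. Of the 207 cells in the AAV-Isl1 plus noise library, 116 (56.0%) also carried at least 3 markers of another cell class, and of the 320 in the noise-only library 114 (35.6%) did. Markers of stria intermediate cells and melanocytes were the commonest, in 57 (27.5%) against 61 cells (19.1%). Fibrocyte and fibroblast markers followed with 25 against 21 cells, neuronal markers with 14 against 18, and endothelial markers with 10 against 9. Macrophage markers met this count in 9 against 4 cells and neutrophil markers in 2 against 0. Sox10, the transcription factor of the glial lineage, was detected in 66 of 207 and 113 of 320 cells. Thinned to 500 UMIs it was found in 16.4% against 17.8% of selected cells, and in 3.32% against 1.43% of endothelial-marker cells, which should lack it. S100b, which binds calcium in glia and other cells, was detected in 106 and 168 cells, but its level was 0.91-fold and 0.94-fold that of all other filtered cells. The set is therefore described as cells selected by glial markers, and split by clustering.

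Clustering was run without the 1624 genes that differed past 1.5-fold between the libraries, so that cluster sizes could be set side by side, and gave 9 clusters. The first and largest, led by Scn7a, Vwa1, Chl1, H2-Q4, Rnd3 and Matn2, held 275 cells (92 in the AAV-Isl1 plus noise library and 183 in the noise-only library), of which 55 carried 3 markers of another class, 29 of them fibrocyte markers. Dcn, a fibroblast proteoglycan, was among its leading genes too. It is called the Scn7a cluster below, with Scn7a in 62.2% of its cells, Fabp7 in 67.3%, Cdh19 in 53.5% and Sox10, which the rule did not use, in 30.2%. A second cluster of 53 and 60 cells was led by Gpr143, Kcnj13, Slc45a2 and Dct, the genes of pigment cells of the stria. Dct was found in all of its cells, Kcnj10 in 94.7%, and 111 of its 113 cells carried markers of another class. It was stria intermediate or melanocyte-like by markers chosen for that class, and is called the Dct cluster.

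**Figure D1:**
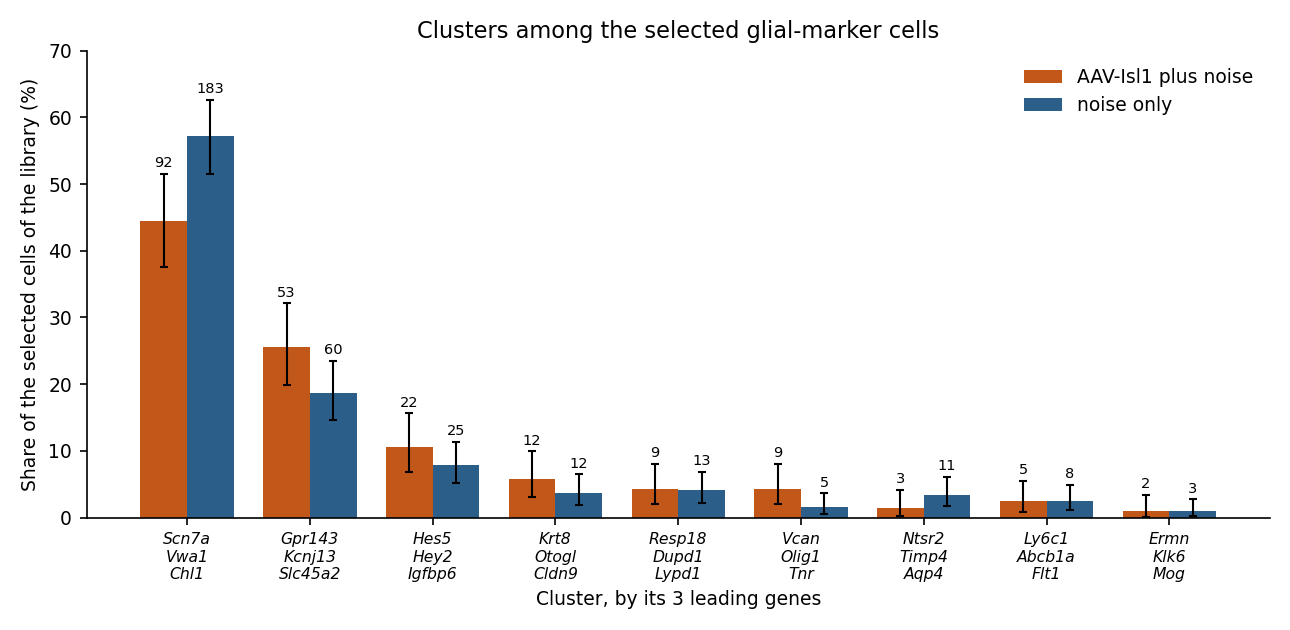
Share of the selected cells of each library in each of 9 clusters (y axis, percent), for AAV-Isl1 plus noise (left bar) and noise only (right bar), with exact 95% binomial intervals and the number of cells above each bar. The Scn7a cluster is the largest in both libraries, with 92 and 183 cells.

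The Hes5 cluster, of 22 and 25 cells, was led by Hes5 and Hey2, with Igfbp6 and the neuropeptide gene Npy. Hes5 and Hey2 are transcriptional repressors that Notch receptors switch on through the factor RBPJ. Hes5 was detected in only 19.1% of these cells and Igfbp6 in 21.3%, against 53.2% for Hey2 and 57.4% for Npy. Fabp7 reached its highest levels here, 6126 CPM in the AAV-Isl1 plus noise library and 6964 CPM in the noise-only library, and was detected in 95.7% of cells. Apoe, the lipid carrier of glia, stood at 27583 CPM and 26299 CPM. Hmgcs1, an early enzyme of cholesterol synthesis, was found in 70.2% of these cells. Scn7a was almost absent, with 3 and 1 UMIs. Of its 47 cells 6 carried markers of another class. Promoters of Hes5 and Hey2 are shown because both genes lead this cluster. They cover 250 bases before to 50 after the gene start in RefSeq (GRCm38.p6), and capitals mark the letters GTGGGAA on either strand, the core of RBPJ sites. Hes5, chr4:154960673-154960972, plus strand, matches starting at -226 and -83 from the gene start:
Hes5: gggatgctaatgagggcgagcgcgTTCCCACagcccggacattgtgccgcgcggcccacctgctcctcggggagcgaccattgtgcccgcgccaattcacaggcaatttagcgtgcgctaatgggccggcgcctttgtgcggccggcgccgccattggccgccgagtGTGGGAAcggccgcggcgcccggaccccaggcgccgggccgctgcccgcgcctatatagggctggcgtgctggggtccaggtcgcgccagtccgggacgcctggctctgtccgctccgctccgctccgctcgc
Hey2, chr10:30842734-30843033, minus strand, matches at -207 and -4:
Hey2: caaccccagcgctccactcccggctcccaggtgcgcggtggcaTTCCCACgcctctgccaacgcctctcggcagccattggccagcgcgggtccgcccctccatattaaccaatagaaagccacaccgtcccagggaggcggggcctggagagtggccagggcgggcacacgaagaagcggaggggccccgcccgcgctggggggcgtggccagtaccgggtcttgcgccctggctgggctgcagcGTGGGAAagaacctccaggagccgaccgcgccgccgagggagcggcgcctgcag
These letters occurred in 6.38% of 32851 mouse promoters of the same length, in 2 places each in Hes5 and Hey2, and not in the windows of Fabp7 or Scn7a. A match is a description of the sequence and no measure of binding.

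The fourth cluster, of 12 and 12 cells, was led by Krt8, Otogl, Cldn9 and Otog, keratin, junction and tectorial genes of inner ear epithelium. A cluster of 9 and 13 cells was led by Resp18, with the neuronal genes Stmn2 and Elavl4, and all 22 of its cells carried at least 3 neuronal markers at a median depth of 6294 UMIs. Another of 5 and 8 cells was led by Ly6c1, Flt1 and Cldn5, endothelial genes, and all 13 carried endothelial markers. The remaining small clusters were led by genes best known from glia of the central nervous system. In 9 and 5 cells these were Vcan, Olig1, Tnr and Pdgfra, and in 3 and 11 cells Ntsr2, Aqp4 (the water channel of astrocyte endfeet) and Slc1a2 (a glutamate transporter). In 2 and 3 cells they were Ermn, Klk6 and Mog, a glycoprotein of central myelin. Of the 14 cells led by Olig1 only 2, and of the 14 led by Aqp4 also 2, carried 3 markers of any other class tested, which included no class of central glia. Sox10 was found in 42.9% of the Olig1 cells and in 0 of the 14 Aqp4 cells.

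**Figure D2:**
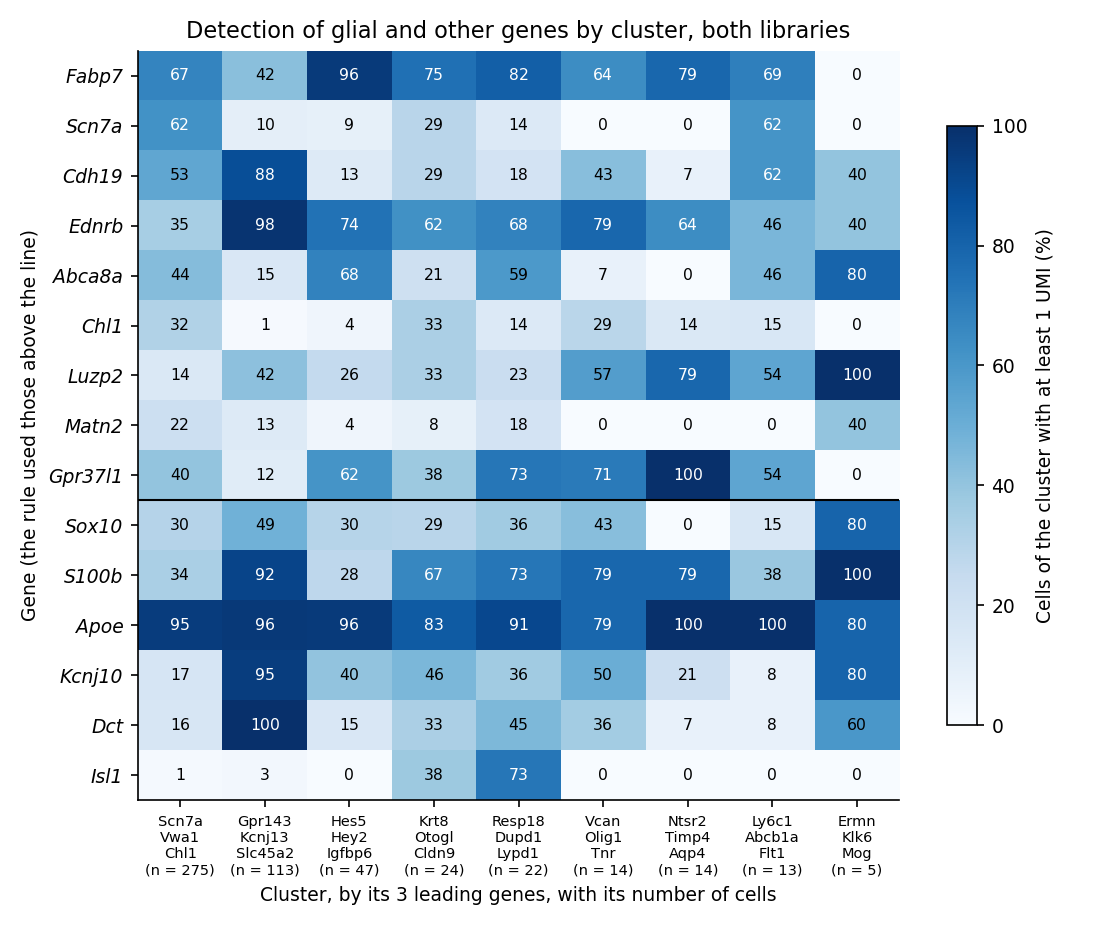
Percentage of cells with at least 1 UMI of each gene (rows) in each cluster (columns, named by their 3 leading genes), both libraries pooled, with the 9 genes of the selection rule above the line. Scn7a reached 62% in the first cluster and 9% in the one led by Hes5, where Fabp7 reached 96%.

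Selected cells made up 0.913% of filtered cells in the AAV-Isl1 plus noise library (exact 95% binomial interval 0.793% to 1.05%), against 1.60% in the noise-only library (1.43% to 1.79%). The ratio of these shares was 0.569 (95% counting interval 0.476 to 0.680). It was 0.442 (0.341 to 0.571) for the Scn7a cluster, 0.777 (0.527 to 1.14) for the Dct cluster and 0.774 (0.416 to 1.43) for the cluster of Hes5 and Hey2. Outside the Scn7a cluster the ratio was 0.739 (0.571 to 0.954), and the intervals of the Dct and Hes5 clusters included 1. Myelinating Schwann cells, taken as filtered cells with at least 2 of the 5 myelin genes, were 5015 (22.1%) against 5848 (29.3%), a ratio of 0.755 (0.727 to 0.784). The stricter the glial criterion, the lower the ratio became, with 0.809 at 2 markers, 0.569 at 3 and 0.388 at 4. Without cells that carried markers of another class, 91 against 206 cells remained and the ratio was 0.389 (0.300 to 0.50). When counts of each cell were drawn down to 500 UMIs, which leaves out no cell, 60 against 140 cells met the rule and the ratio was 0.377 (0.274 to 0.514). Drawn down to 1000 UMIs, which leaves out cells of lower depth, 53 against 66 cells met the rule. The ratio was then 0.690 (0.472 to 1.01), an interval that included 1. A share falls also when other cells are more numerous, and the neutrophils and erythroid cells of the AAV-Isl1 plus noise library enter the denominator. Their part in this ratio was not tested. With 1 pooled library per group, a difference between ears, dissections or captures cannot be told apart from the treatment.

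Isl1 (chr13:116298281-116309689, minus strand), the gene carried by the virus, had 80 UMIs or 208 CPM (exact Poisson interval 165 to 258) in the AAV-Isl1 plus noise library. In the noise-only library it had 27 UMIs or 44.3 CPM (29.2 to 64.5), and the ratio was 4.68 (2.99 to 7.54). A few cells carried it. It was detected in 18 of 207 against 14 of 320 cells, and in the AAV-Isl1 plus noise library single cells with 29, 15 and 8 UMIs held most of the count. The cell with 29 belonged to the Dct cluster, that with 15 to the Krt8 cluster and that with 8 to the neuronal one. Without the 5 cells with most UMIs in each library the ratio was 2.49, and among cells with 4 glial markers it was 0.443 (0.0827 to 1.55). The Scn7a cluster had 2 UMIs of Isl1 against 2 UMIs (17.8 CPM against 12.2 CPM), and in the Hes5 cluster 0 against 0, which allows up to 102 CPM against 70.8 CPM. In the Dct cluster it had 31 UMIs against 0, where a count of 0 allows up to 15.9 CPM. The Krt8 cluster held 27 against 6 UMIs and the cluster led by neuronal genes 20 against 19, and neurons of the inner ear normally express Isl1. Endothelial-marker cells, which should lack the gene without a vector, stood at 35.7 CPM against 26.0 CPM and macrophage-marker cells at 58.1 CPM against 22.0 CPM. No promoter is named, so background and vector Isl1 cannot be told apart in these cells of the AAV-Isl1 plus noise library. With exact Poisson intervals of 2.15 to 64.2 CPM and 1.48 to 44.1 CPM, no Isl1 above the level of these cells was detectable in the Scn7a cluster. Myelinating Schwann cells had 116 CPM against 104 CPM (ratio 1.12, 1.03 to 1.22). The deposited counts do not separate transcripts of the vector and of the genome.

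Across the 1594 genes with at least 100 UMIs in the selected cells, 35 (2.2%) were past 1.5-fold higher and 67 (4.2%) past 1.5-fold lower in the AAV-Isl1 plus noise library, 102 (6.4%) in all, with a median log2 ratio of -0.04. Ratios were above 1 for 696 genes and below 1 for 898. In the Scn7a cluster, with far fewer UMIs, 333 genes reached that count, of which 32 (9.61%) were past 1.5-fold higher and 53 (15.9%) lower. Over 11273 genes of myelinating Schwann cells the shares were 2.08% and 0.577%, or 2.65% in all. The Scn7a cluster total was 85 (25.5%). Among genes at 10% or more of the highest level of any cell class, and with at most 25% of their UMIs in 5 cells, those with the highest ratios reported here were led by Ptpra, Ankrd11, H2-K1 and Golgb1, and these 4 passed 1.5-fold. The lowest were Vwa1, Ifit3, Cadm4, Pigp, Scn7a, Rab18, Osbpl1a, Sostdc1, Ptprf, Rnd3, Igf1r and Kcna1, and all 12 passed 1.5-fold.

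The rule allowed 1 of its 5 myelin genes to be detected, and 64 of 207 cells in the AAV-Isl1 plus noise library had 1, against 60 of 320 in the noise-only library. Their levels, which the choice of cells caps, were 54.5 CPM against 23 CPM for Ncmap, a myelin protein of Schwann cells (ratio 2.37), and 57.1 CPM against 26.3 CPM for Prx, the gene of periaxin (2.17). In myelinating Schwann cells both were below a ratio of 1, at 0.88 (0.85 to 0.91) and 0.94 (0.90 to 0.98). With cells thinned to 500 UMIs, Ncmap was found in 3.86% against 1.25% of selected cells, and in 6.78% against 4.30% of endothelial-marker cells, which do not make myelin. At full depth the shares were 8.21% against 3.75% of selected cells (medians of 1374 and 1060.5 UMIs) and 14.1% against 11.7% of endothelial-marker cells (1209 and 1604.5 UMIs). The shares in selected cells lay below those of endothelial-marker cells in both libraries, but the rule capped only the selected cells. This comparison therefore cannot tell expression from background, and the shares are not read as expression.

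Of the 12 genes with the lowest ratios, Scn7a was at 239 CPM against 463 CPM (ratio 0.52), which describes the choice of cells, since the rule used it. Within the Scn7a cluster it was at 702 CPM against 1422 CPM. Vwa1 (chr4:155768149-155774698, minus strand), a matrix protein of peripheral nerve, had 30 UMIs or 77.9 CPM against 115 UMIs or 189 CPM (0.41, 0.27 to 0.62). Its level in the Scn7a cluster was 187 CPM against 580 CPM (0.32, 0.19 to 0.52). Thinned to 500 UMIs it was detected in 5.31% against 16.6% of selected cells, while endothelial-marker cells showed 5.91% against 8.32%. Cadm4 (chr7:24482023-24504539, plus strand), an adhesion molecule by which Schwann cells bind axons, had 104 CPM against 227 CPM (0.46, 0.31 to 0.66). Sostdc1, a secreted inhibitor of BMP and Wnt signals, had 177 CPM against 315 CPM (0.56, 0.42 to 0.74). Kcna1, a potassium channel, had 317 CPM against 544 CPM (0.58, 0.47 to 0.72). Rnd3, a small GTP-binding protein, had 80.5 CPM against 141 CPM (0.57, 0.37 to 0.87). Pigp, of GPI anchor synthesis, had a ratio of 0.50 (0.34 to 0.74), Rab18, of vesicle traffic, 0.54 (0.34 to 0.85), Osbpl1a, an oxysterol-binding protein relative, 0.55 (0.38 to 0.78) and Ptprf, a receptor phosphatase, 0.56 (0.35 to 0.87). The ratios of Vwa1, Cadm4, Sostdc1, Kcna1 and Rnd3 in the Scn7a cluster were further from 1 than in all selected cells, between 0.32 and 0.50. In myelinating Schwann cells the same genes had ratios between 0.83 and 0.90. Every rule gene but Ednrb was also lower in the Scn7a cluster, with Fabp7 at 977 CPM against 1746 CPM and Matn2 at 116 CPM against 360 CPM. Sox10 was at 258 CPM against 391 CPM there, while Ednrb was at 462 CPM against 403 CPM and Dcn at 1573 CPM against 873 CPM. Whether the lower ratios of Vwa1, Cadm4, Sostdc1, Kcna1 and Rnd3 were separate from those of glial genes in general was not tested.

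**Figure D3:**
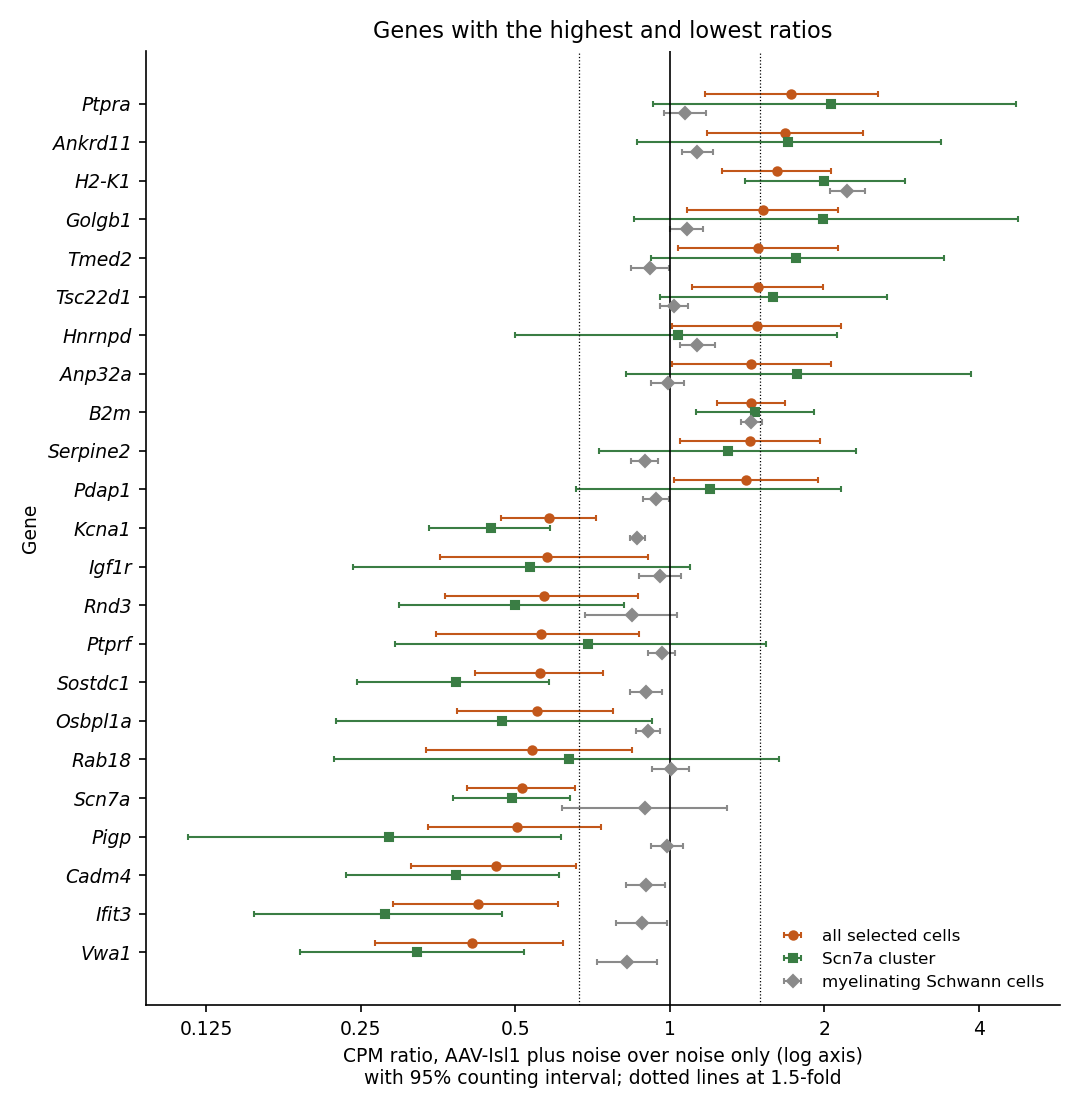
CPM ratio of AAV-Isl1 plus noise over noise only (x axis, log scale) for the reported genes with the highest and the lowest ratios that met the naming rule, in all selected cells (circles), the Scn7a cluster (squares) and myelinating Schwann cells (diamonds), with 95% counting intervals. Vwa1 is at 0.41 in selected cells and 0.83 in myelinating Schwann cells.

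The axoglial adhesion list had 7 genes of 18 with at least 100 UMIs, of which 1 was above and 6 below a ratio of 1, with a median log2 ratio of -0.36 beside -0.04 for all genes. Cadm4 and Dag1, the gene of dystroglycan, were past 1.5-fold lower. Dag1 had 163 CPM against 248 CPM (0.66, 0.48 to 0.89) and Ncam1, the neural cell adhesion molecule, 267 CPM against 343 CPM (0.78, 0.61 to 0.99). Itgb1, the integrin beta 1 chain, had 363 CPM against 325 CPM (1.12, 0.89 to 1.39). In the Scn7a cluster all 3 measured genes of the list were below 1, with a median log2 ratio of -1.24 beside 0.01 for its 333 genes. Of 18 genes of axon to glia signalling 4 reached the count and all 4 were below 1, as were 898 of all 1594 genes. Igf1r, the receptor for insulin-like growth factor 1, was at 70.1 CPM against 121 CPM (0.58, 0.36 to 0.91). Lgi4, a secreted protein that Schwann cells need to sort axons, was at 210 CPM against 255 CPM (0.83, 0.62 to 1.09), and Erbb3, the neuregulin receptor, at 114 CPM against 150 CPM (0.76, 0.52 to 1.11). The intervals of Lgi4 and Erbb3 included 1.

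Of 12 genes of the glial lineage 9 reached the count, with 2 above 1, 7 below and none past 1.5-fold, beside 898 below 1 of all 1594 genes. Cnp, an enzyme of glial cytoplasm, had 337 CPM against 460 CPM (0.73, 0.59 to 0.91), whereas S100b had 877 CPM against 857 CPM (1.02, 0.89 to 1.18). In the Scn7a cluster all 6 measured genes of the glial lineage list were below 1, and 5 were past 1.5-fold lower, beside 15.9% of all its genes. The median log2 ratio of the list there was -0.83, beside 0.01 for the 333 genes of that cluster. Of 13 satellite glia genes 8 reached the count in all selected cells, 3 above and 5 below 1, with a median log2 ratio of -0.13. Dbi, which binds acyl-CoA and acts on GABA receptors, had 2152 CPM against 3113 CPM (0.69, 0.64 to 0.75), and in the Scn7a cluster 2461 CPM against 5127 CPM (0.48, 0.42 to 0.55). Kcnj10, the potassium channel Kir4.1, was level at 651 CPM against 623 CPM (1.05, 0.89 to 1.23). Most of that level came from the Dct cluster, at 1648 CPM against 1451 CPM, while the Scn7a cluster had 97.7 CPM against 244 CPM (0.40, 0.19 to 0.79). The potassium and glutamate buffering list as a whole had 8 measured genes of 14, 3 above and 5 below 1, and a median log2 ratio of -0.20, and Kcna1 alone was past 1.5-fold.

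The non-myelinating Schwann list had 5 measured genes of 13, 4 above and 1 below 1, with a median log2 ratio of 0.14. Apod, an apolipoprotein of Schwann cells and fibroblasts, was at 1679 CPM against 1002 CPM (1.68, 1.5 to 1.88). For Apod, 5 cells held 233 of 647 UMIs in the AAV-Isl1 plus noise library and 248 of 610 in the noise-only library. That is above the 25% allowed for ratio genes, and the interval does not cover it. Apod was higher in myelinating Schwann cells too, at 1183 CPM against 818 CPM (1.45, 1.41 to 1.49). The selected cells held less of it than all other cells, at 2214 CPM against 1890 CPM. Cd9, a tetraspanin, had 1012 CPM against 917 CPM (1.10, 0.97 to 1.26). Peripheral myelin genes had 8 measured of 16 and a median log2 ratio of 0.05. Pmp22, a myelin membrane protein, was at 875 CPM against 762 CPM (1.15, 0.99 to 1.32) and Mbp at 631 CPM against 608 CPM (1.04, 0.88 to 1.22), and both intervals included 1. Lipid transport genes had 9 measured of 13, 5 above and 4 below 1, and Apod and Lrp1 were past 1.5-fold higher. Apoe itself had 7125 CPM against 7794 CPM (0.91, 0.87 to 0.96), with a ratio of 1.18 among cells with 4 markers and 1.17 among those that met the rule at 500 UMIs. Of 18 cholesterol synthesis genes 4 reached the count, with a median log2 ratio of -0.01.

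Class I antigen presentation had the highest median of the lists over genes with at least 100 UMIs. All 8 measured genes of 16 were above a ratio of 1, with a median log2 ratio of 0.31 beside -0.04 for all genes, and H2-K1 and Psmb8 were past 1.5-fold. H2-K1 (chr17:33996017-34000347, minus strand), a class I heavy chain, had 140 UMIs or 363 CPM against 137 UMIs or 225 CPM (1.61, 1.27 to 2.06). Cells of the Scn7a cluster had 684 CPM against 342 CPM (2.00, 1.40 to 2.88). B2m (chr2:122147686-122153083, plus strand), the light chain shared by all class I molecules, had 838 CPM against 581 CPM (1.44, 1.24 to 1.68), and H2-D1, another heavy chain, 579 CPM against 417 CPM (1.39, 1.15 to 1.67). Psmb8, a subunit of the immunoproteasome that cuts peptides for class I, had 54 against 51 UMIs (1.67, 1.12 to 2.50). Class I heavy chains are close copies of each other, so reads of H2-K1 and H2-D1 may have been split between them. In myelinating Schwann cells 13 of 14 measured genes of the list were above 1, with H2-K1 at 2.22 (2.05 to 2.40) and B2m at 1.44 (1.37 to 1.51). All other filtered cells had 558 CPM against 399 CPM of B2m, so the higher level was not particular to the selected cells. Summed macrophage markers were 558 CPM against 102 CPM and neutrophil markers 1334 CPM against 6.57 CPM in the selected cells, and their part in the class I values was not tested. Without cells carrying markers of another class, the H2-K1 ratio was 1.80 (1.18 to 2.72). Among cells that met the rule at 500 UMIs, the B2m ratio was 0.99.

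Of 32 interferon response genes 7 reached the count, 2 above and 5 below 1, with a median log2 ratio of -0.15, and the difference from the class I list was not tested. Ifit3 (chr19:34583531-34588731, plus strand), an antiviral protein induced by type I interferon, alone passed 1.5-fold, with 39 UMIs or 101 CPM against 146 UMIs or 240 CPM (0.42, 0.29 to 0.60). In the Scn7a cluster it had 17 against 89 UMIs (0.28, 0.16 to 0.47), and in myelinating Schwann cells 60.03 CPM against 68.1 CPM (0.88, 0.79 to 0.99). Ifit3b is a near copy, so counts may have been split with it, and its own ratio was 0.94 (0.50 to 1.71). Among genes under the count, Gbp2, a guanylate-binding protein, had 22 against 9 UMIs (3.86, 1.71 to 9.53) and Irf9, a subunit of the factor that interferon activates, 31 against 27 UMIs (1.81, 1.05 to 3.16). Isg15 had 61 against 105 UMIs (0.92, 0.66 to 1.27), and Ifi27l2a had 3413 CPM against 4065 CPM (0.84, 0.78 to 0.90). Bst2, or tetherin, which holds budding virus at the membrane, had 387 CPM against 435 CPM (0.89, 0.72 to 1.09). In the Scn7a cluster all 6 measured genes were below 1, with a median log2 ratio of -0.51 beside 0.01 for its 333 genes. Medians of other lists were lower still in that cluster, at -1.24 for axoglial adhesion, -0.83 for glial lineage and -0.67 for immediate early genes. Class I was at 0.55 there. The lower side was therefore not particular to interferon genes. Promoters of Ifit3 and B2m are shown because both carry the same element while their ratios lay on opposite sides of 1. Capitals mark GAAA, any 2 bases and GAAA again, on either strand, the core of the interferon-stimulated response element (ISRE), in RefSeq promoters (GRCm38.p6). Ifit3, chr19:34583279-34583578, plus strand, matches starting at -156 and -122 from the gene start:
Ifit3: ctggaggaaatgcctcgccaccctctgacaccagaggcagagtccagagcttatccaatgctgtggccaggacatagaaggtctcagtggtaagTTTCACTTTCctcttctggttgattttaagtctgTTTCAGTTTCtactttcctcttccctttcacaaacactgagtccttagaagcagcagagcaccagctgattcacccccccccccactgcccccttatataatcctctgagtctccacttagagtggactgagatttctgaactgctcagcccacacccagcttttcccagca
B2m, chr2:122147437-122147736, plus strand, a match at -139:
B2m: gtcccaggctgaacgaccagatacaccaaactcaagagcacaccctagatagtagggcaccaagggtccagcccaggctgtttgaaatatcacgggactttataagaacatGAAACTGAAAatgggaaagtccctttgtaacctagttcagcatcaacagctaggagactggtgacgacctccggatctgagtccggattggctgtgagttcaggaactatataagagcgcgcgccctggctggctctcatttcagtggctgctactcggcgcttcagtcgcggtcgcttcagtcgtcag
These exact letters occurred in 3.44% of 32851 promoters. Isg15 held 3 overlapping matches and Bst2 held 2, and the windows of H2-K1, H2-D1 and Scn7a held no exact match. Variants of the element were not searched, so a window without a match may still hold one.

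Immediate early genes are those that cells switch on within minutes of stimulation or handling. Of 22 such genes 20 reached the count, 6 above and 14 below 1, with a median log2 ratio of -0.22 and none past 1.5-fold. Over all 1594 genes 898 were below 1, with a median log2 ratio of -0.04. Fos had 4560 CPM against 6048 CPM (0.75, 0.71 to 0.80), Jun 2575 CPM against 3178 CPM (0.81, 0.75 to 0.88) and Atf3, also a gene of injured Schwann cells, 789 CPM against 1096 CPM (0.72, 0.63 to 0.83). The Scn7a cluster showed the same side more strongly, with 8672 CPM against 15833 CPM of Fos (0.55, 0.51 to 0.59). Its median log2 ratio over 16 measured genes was -0.67, beside 0.01 for its 333 genes, and 10 of them were past 1.5-fold lower, beside 15.9% of all its genes. The glial lineage list was at -0.83 in the same cluster, so the lower side was not particular to immediate early genes. In the Dct cluster Fos was higher, at 1554 CPM against 1017 CPM (1.53, 1.25 to 1.87). All other filtered cells had 2912 CPM against 3976 CPM of Fos, and 21 of 22 list genes were below 1 in myelinating Schwann cells.

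Heat shock chaperones had 12 measured genes of 17 and a median log2 ratio of -0.05. Hspb1, a small heat shock protein, was the only one past 1.5-fold, with 176 against 141 UMIs (1.97, 1.57 to 2.48). Hspa1a, the inducible Hsp70, had 77 against 179 UMIs (0.68, 0.51 to 0.89), and Hspa8, its constitutive relative, had a ratio of 1.00 (0.84 to 1.19). Antioxidant and metallothionein genes had 13 measured of 23, 2 above and 11 below 1, beside 898 below 1 of all 1594 genes. Gpx1, glutathione peroxidase 1, was past 1.5-fold higher (1.69, 1.21 to 2.37) and Gstm1, a glutathione transferase, past 1.5-fold lower (0.62, 0.41 to 0.92). Sod2, the mitochondrial superoxide dismutase, had 61 against 137 UMIs (0.70, 0.51 to 0.96). Nuclear genes of oxidative phosphorylation were nearly level, with 28 measured of 29, 11 above and 17 below 1, a median log2 ratio of -0.06 and none past 1.5-fold. Cdkn1a, the cell cycle inhibitor p21 and a p53 target, had 249 CPM against 169 CPM (1.47, 1.10 to 1.96). Hspb1, Psmb8, Lrp1, Gpx1, Gstm1, Hspa1a, Sod2, Isg15, Ifit3b, Gbp2 and Irf9 are named here after their values were seen.

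**Figure D4:**
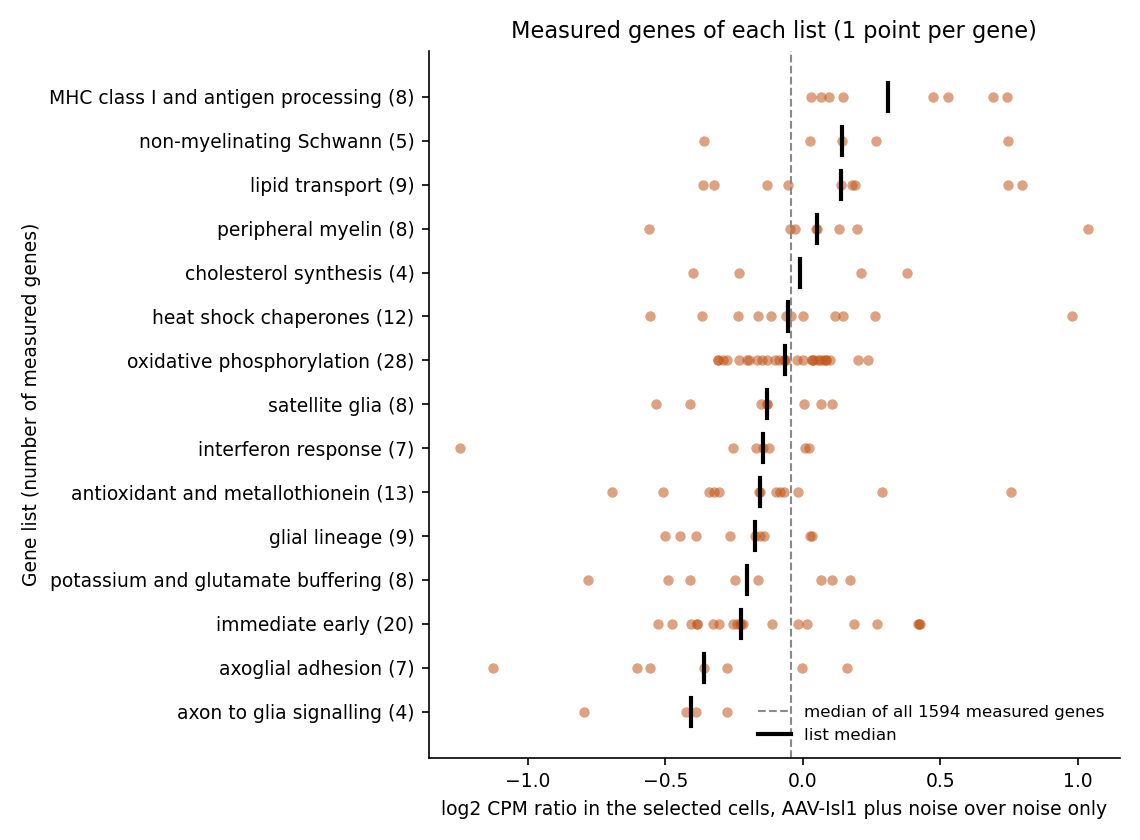
log2 CPM ratio of AAV-Isl1 plus noise over noise only in the selected cells (x axis) for each gene with at least 100 UMIs (points) of gene lists with 4 or more such genes (rows, number of genes in brackets), with the list median as a bar and the median of all 1594 genes as a dashed line. All 8 class I genes lie to the right of 0, and the lists of axon contact and signalling have medians of -0.36 and -0.41.

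RNA of genes known from immune cells was present among the selected cells and differed between libraries. Of 8 class II antigen presentation genes none reached the count, but their sum was 514 CPM against 85.4 CPM (6.02, 4.41 to 8.33). Over the Scn7a cluster it was 1013 CPM against 177 CPM. The same list was 3.18-fold higher (2.98 to 3.39) in myelinating Schwann cells. Chemokines and cytokines summed to 527 CPM against 261 CPM (2.02, 1.63 to 2.50) and complement genes to 1113 CPM against 851 CPM (1.31, 1.15 to 1.49). Within complement, C1qa, a macrophage gene, had 67 against 22 UMIs, while Cd59a, which protects a cell from complement, had 410 CPM against 577 CPM (0.71, 0.59 to 0.86). The macrophage and neutrophil marker sums given above moved in the same direction, with 8 of 9 macrophage markers detected in each library and 1 at 0 in each, and 7 and 2 of 8 neutrophil markers detected. Their part in these sums was not tested.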

How the data were processed

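The authors deposited a matrix of UMI counts, not normalised, for each of 2 libraries. Tools named in the submitters' processing notes are STAR, Cell Ranger 5.0 and Seurat 3.2.2, the genome is mm10 (GRCm38), and the file headers name Cell Ranger 5.0.1. The filters that made the barcode list are not given in the sources used here. Barcodes below 300 genes or above 20% of mitochondrial UMIs were dropped. Counts were summed over cells of a library and divided by their total to give CPM. Intervals are exact Poisson for counts, Clopper-Pearson for shares and conditional binomial for ratios, at 95%. They cover counting error only. With 1 library per group no test between groups was possible, and 1.5-fold among genes with at least 100 UMIs served as the description. The calculation was checked on simulated data. Clusters came from scanpy 1.11.5 (1500 variable genes, 15 principal components, 15 neighbours, Leiden resolution 0.5), after leaving out genes past 1.5-fold between libraries with at least 20 UMIs.

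Marker lists of 13 other cell classes and 23 gene lists were used. The cells, lists and rules were chosen with earlier results of these data known. Named genes were Isl1, the rule's genes, the 12 highest and 12 lowest ratios, up to 4 genes per list with the most UMIs and the genes most above other cells. Ratio genes needed at least 20 CPM, an interval without 1, at least 10% of the highest level in any class and at most 25% of UMIs in 5 cells. Mitochondrial, ribosomal, globin, immunoglobulin and receptor genes and unnamed models were left out of these. Some genes that met the rule are not reported here, and list counts and medians include them. Gene positions are those of GENCODE vM21. Doublets were not removed. Scrublet's automatic thresholds called 0 cells in each library, so the caller did not work, and in its place the 6% of cells with the highest score were left out as an alternative. Other alternatives were stricter cell filters, 2 or 4 markers, no myelin gene, no cell with markers of another class, thinning to 1000 or 500 UMIs, the Scn7a cluster alone, other scaling, other count minimums and leaving out the 5 cells with most UMIs.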

Additional observations from a re-analysis of the deposited data

Results flagged for a closer look

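Genes with at least 100 UMIs whose ratio lay on opposite sides of 1 in the selected cells and in myelinating Schwann cells, with both counting intervals clear of 1, were singled out. The difference between the cell types was not tested, and each rests on 1 library per group. On the higher side in selected cells were Tmed2 at 1.49 (0.91 in myelinating Schwann cells), Cdkn1a at 1.47 (0.78), Serpine2 at 1.44 (0.89) and Pdap1 at 1.41 (0.94). On the lower side were Ncam1 at 0.78 (1.10), Fabp3 at 0.78 (1.11), Mt3 at 0.80 (1.02), Syt4 at 0.82 (1.16), Ifi27l2a at 0.84 (1.26), Atp1b1 at 0.84 (1.07) and Hsp90aa1 at 0.85 (1.13). For Fabp3, 5 cells held 84 of 119 UMIs in the AAV-Isl1 plus noise library and 173 of 242 in the noise-only library. In the Scn7a cluster the intervals of Syt4 (0.14 to 4.49) and Fabp3 (0.60 to 38.2) included 1, Atp1b1 at 1.32 (0.87 to 1.99) and Mt3 at 1.24 (0.80 to 1.93) lay on the other side, and Ncam1 was lower at 0.39 (0.23 to 0.64). All of these genes but Serpine2 turned to the other side of 1 under at least 1 other setting, Cdkn1a at 0.93 without any myelin gene among them.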

How the results depend on the processing

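No paired analysis was possible because a library mixes the ears of 5 mice, and no replicate could be left out. The share of selected cells was lower in the AAV-Isl1 plus noise library under all 9 alternatives to the cell choice, 3 of them (500 UMIs, the Scn7a cluster alone and the Scrublet scores) chosen after seeing the data. Its ratio was 0.388 with 4 markers, 0.809 with 2, 0.389 without cells carrying other markers, 0.690 (interval 0.472 to 1.01) thinned to 1000 UMIs, 0.377 thinned to 500, 0.442 in the Scn7a cluster, 0.674 under stricter filters, 0.484 without any myelin gene and 0.537 without the 6% highest Scrublet scores. The Isl1 ratio turned to 0.443 (0.0827 to 1.55) with 4 markers, and was 2.50 with 2 and 2.49 without 5 cells. The cause was not tested. Genes past 1.5-fold higher and lower were 35 and 67 in all selected cells, against 133 and 104 with 2 markers, 17 and 41 without other markers, 3 and 10 thinned to 1000 UMIs, 8 and 19 thinned to 500, 107 and 136 as a mean over cells, 3120 and 2330 from 1 UMI, and 7 and 5 from 400 UMIs, where the number of genes tested differs too except in the mean over cells. The interferon median was -0.51 in the Scn7a cluster and between -0.46 and -0.02 elsewhere. Of 1481 values of single genes and lists, 41 turned round and another 344 lay outside their main interval. Only values whose main interval excluded no difference could count as turned round, so 41 is not a share of all 1481. Those that turned round with 2 markers were Mt3 (1.12), Ptprf (1.04) and Tmed2 (0.98). With 4 they were Anp32a (0.82), Apoe (1.18), Golgb1 (0.98), Mt3 (1.02), Slc45a2 (1.33) and Syt4 (1.36). As a mean over cells they were Atp1b1 (1.19), Fabp3 (1.30), Gpnmb (1.05), Slc45a2 (1.05) and Syt4 (1.03). Without any myelin gene it was Cdkn1a (0.93). In the Scn7a cluster they were Atp1b1 (1.32) and Mt3 (1.24). Thinned to 1000 UMIs they were Atp1b1 (1.47), Fabp3 (1.25), Hsp90aa1 (1.34), Ifi27l2a (1.07), Ncam1 (1.17), Pdap1 (0.86), Slc45a2 (1.25) and Syt4 (3.42). Thinned to 500 they were Apoe (1.17), Atp1b1 (1.37), B2m (0.99), Gpnmb (1.17), Hnrnpd (0.26), Hsp90aa1 (1.04), Mt1 (1.32), Mt3 (1.59), Osbpl1a (1.06), Pdap1 (0.78) and Rab18 (1.04). Without cells carrying other markers they were Atp1b1 (1.40), Gpnmb (1.89), Hnrnpd (0.98), Pdap1 (1.00) and Syt4 (1.68). Vwa1, Ifit3, Cadm4, Sostdc1, Kcna1, Dbi, Jun and Fos stayed below 1 and H2-K1 above 1 under all settings run for them.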

Other observations

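Some genes of the selected cells had ratios on opposite sides of 1 in the Scn7a and Dct clusters, a contrast that was not tested. Fos was at 0.55 (0.51 to 0.59) in the Scn7a cluster and 1.53 (1.25 to 1.87) in the Dct cluster, Apoe at 0.80 (0.74 to 0.86) and 1.33 (1.17 to 1.52), Mt1 at 0.74 (0.63 to 0.87) and 1.24 (1.03 to 1.5), and Sparc, a matrix protein, at 0.59 (0.47 to 0.74) and 1.58 (1.01 to 2.48). Glul, glutamine synthetase of satellite glia, was at 2.10 (1.25 to 3.57) in the Scn7a cluster and 0.89 (0.72 to 1.10) in the Dct cluster. These genes were picked after their values were seen.

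Inside the Dct cluster Gpr143, its first leading gene, had 85.9 CPM in the AAV-Isl1 plus noise library against 84.7 CPM in the noise-only library, while other pigment genes, picked after their values were seen, were lower, with Dct at 20405 CPM against 22768 CPM (0.90, 0.85 to 0.94), Gpnmb at 0.74 (0.65 to 0.84), Slc45a2 at 0.69 (0.55 to 0.85) and Tyr at 0.73 (0.57 to 0.93). Single genes outside the named set stood out by size. Ccl7 had 41 UMIs against 1 and Il1b 19 against 1, both picked after their values were seen, beside the macrophage and neutrophil marker sums given above. Ccl5, a lymphocyte chemokine, went the other way with 4 against 33 UMIs.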
